A study of Xenopus tropicalis with 12 samples.

Results

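Embryos of the frog Xenopus tropicalis that received the naphthenic acid mixture labelled S1 were set against control embryos on single-colour oligonucleotide arrays. The members were the 8 arrays carrying the labels S1-1 to S1-4 and C-1 to C-4, out of 12 arrays in the series, and all probes whose spots were well above background on at least 4 of these 8 arrays. That left 28746 of the 32899 distinct probes. Both groups were whole embryos at 3 days post fertilization. The S1 embryos received mixture S1 and the control embryos received neither mixture, per the group labels. The other 4 arrays held embryos given mixture S2. Per the series' design text, S1 and S2 belong to a pair of batches of one commercial naphthenic acid product. The dose, the duration of the exposure, the vehicle, the strain and the number of embryos in a sample are not given in the sources used here, and nothing in the labels says that the 4 samples of a group came from separate clutches. The p-values below therefore measure the spread between these samples, which may be partly technical.

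Naphthenic acids are carboxylic acids that occur in petroleum and build up in the process water of oil sand extraction. Animals handle such foreign acids with cytochrome P450 enzymes, which oxidise them, with conjugating enzymes, which attach a sugar, sulphate or glutathione group, and with membrane carriers such as the ABC pumps, which export the products. Some carboxylic acids resemble fatty acids closely enough to occupy nuclear receptors that control fat metabolism. A tadpole of this age has a beating heart, working muscle, a ciliated skin and a young liver, kidney and eye, so the RNA of a whole embryo is a mixture of many tissues.

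Every level below is a log2 signal relative to the 75th percentile of its own array, so a level of 0 equals that percentile. Every difference is S1 minus control on the log2 scale, with its standard error (SE) from 1 limma fit over the 12 arrays, and n is 4 arrays per group throughout. Changed means an adjusted p under 0.05 in that fit, by the Benjamini-Hochberg method over the 28746 probes. The arrays sat on 3 slides. Slide 1 held S1-1 and C-1, slide 2 held S1-2, S1-3 and C-2, and slide 3 held S1-4, C-3 and C-4. The S1 arrays were dimmer, with mean log2 processed signals before scaling of 6.0 to 6.76, against 6.80 to 7.62 on the control arrays. These ranges did not overlap. On 84.2% to 87.4% of probes the S1 arrays were well above background, against 85.7% to 92.3% on the control arrays. With the brightness of each array as a covariate the number of changed probes was 110, against 631 without it. Since the 2 groups did not overlap in brightness, this fit can hardly tell brightness and the mixture apart. A call kept or lost in it, here and below, therefore does not settle which of them a difference follows. The part that brightness plays in the results was not tested further. Pairs of arrays within S1 correlated at r = 0.978 to 0.989 across probes, and pairs within the control group at 0.987 to 0.992. Pairs of an S1 and a control array reached 0.977 to 0.989, about the range found within S1. Principal components of the 8 arrays put S1-4 (52.6) and C-3 (42.7) apart from the others (-39.1 to 7.2) on the first axis. That axis held 30.6% of the variance, and both arrays were on slide 3. The groups separated on the second axis (25.5%), with S1 at 21.7 to 34.8 and control at -29.9 to -26.3. All 16 measured skeletal muscle markers, all 19 neuron markers and all 17 liver markers were well above background on each of the 8 arrays. So were 30 of 31 lens, 24 of 27 epidermis and 11 of 13 pancreas and gut markers. The filter had already asked for 4 of the 8 arrays, and 26485 of the 28746 tested probes were well above background on all 8. These counts therefore do not test which tissues the samples held.

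Between S1 and control embryos 631 of the 28746 probes, or 2.2%, were changed, of which 416 (1.45%) were higher and 215 (0.748%) were lower in S1 embryos. The median difference was 0.77 among the higher probes and -0.66 among the lower ones, while the median over all tested probes was -0.01. At least 2-fold changes were counted in 155 higher and 35 lower probes. The count depended on single arrays: without C-1, C-2, C-3 or C-4 it was 362, 296, 382 or 355, without S1-1 or S1-3 it was 387 or 290, and without S2-1 or S2-3 it was 408 or 411. Normexp background correction gave 27 higher and 1 lower probe with local backgrounds as measured, and 443 higher and 105 lower with outlying backgrounds replaced, while it moved the median of all probes to 0.25 and 0.16. Of 43 genes that the naming rule took and that passed, those that kept their call with local backgrounds as measured were cyp2f1, cyp2a13l and rbm48, whose probes share a signal. A fit of only the 8 arrays of S1 and control called 309 probes and 21 of those 43 genes. The probes matched 4336 genes with a symbol, and 101 of these (2.33%) changed, with 61 higher (1.41%) and 40 lower (0.923%) in S1. Among those 101 genes the 4 S1 and 4 control arrays never overlapped, whereas the arrays separated in 11.6% of all genes with a symbol. The probes that matched no gene entry made up 81.2% of those tested, and 491 of them changed (2.1%).

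**Figure D1:**
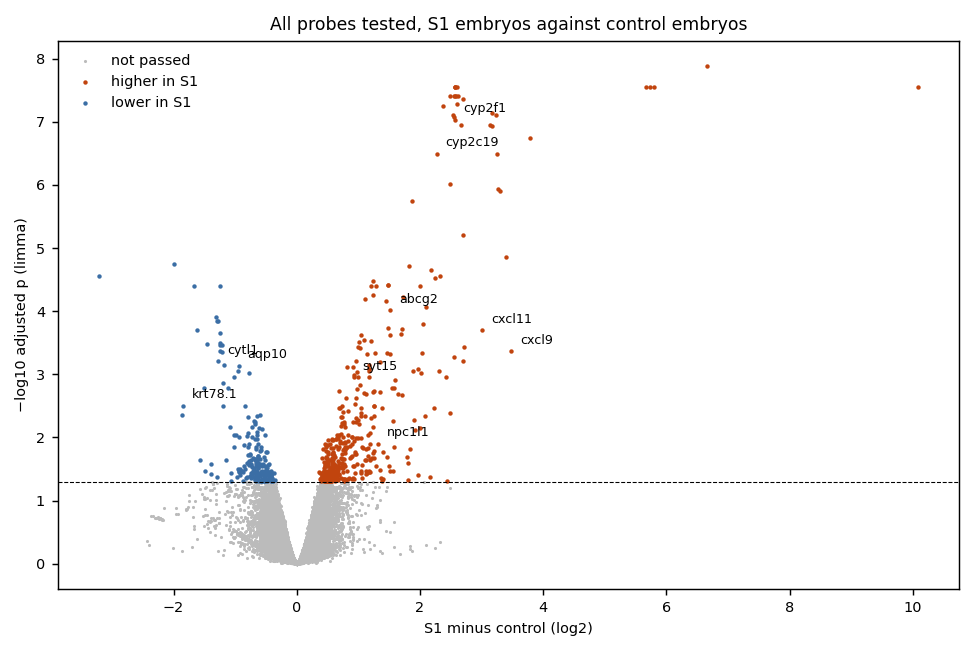
Each point is a tested probe, with the S1 minus control difference (log2) on the horizontal axis and −log10 of the limma adjusted p on the vertical axis, and the dashed line marks an adjusted p of 0.05. The 416 higher probes reach a difference of 10.09, while the 215 lower ones go down to -3.22.

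Genes of foreign-compound oxidation and export gave some of the clearest rises. Of 12 measured genes of P450 families 1 to 4, 3 rose, none fell and the list's median difference was 0.15, against -0.03 over all genes. Among the 3, cyp2f1 and cyp2a13l share a signal, as described below, and are not separate rises. Of 11 ABC transporter genes, 1 rose. Over all genes with a symbol 1.41% rose and 0.923% fell, shares to hold beside the counts of every list. None of 9 conjugating enzyme genes and none of 18 organic anion and bile acid carrier genes passed the test. Only hnf4g, a receptor of the HNF4 family that acts in gut and kidney epithelium, changed among 8 nuclear receptors and partner genes of foreign-compound sensing, and it was lower in S1.

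The gene cyp2c19, named after a human drug-oxidising P450, had signals of -0.63, -0.83, -0.55 and -0.68 on the S1 arrays, against -3.13, -2.91, -2.70 and -3.02 on the control arrays. The S1 arrays had an SD of 0.12, and every one was above every control array. The rise was 2.27 ± 0.12 (SE), a 4.82-fold change (adjusted p = 3.2e-07), and within slides 1, 2 and 3 it was 2.50, 2.22 and 2.18. The probe of cyp2f1, named after a P450 of the mammalian airway, read 5.29, 5.08, 5.26 and 5.28 in S1, against 2.56, 2.56, 2.59 and 2.95 in control embryos. The probe of cyp2a13l, another member of the CYP2 family, read 5.25, 5.17, 5.13 and 5.21 in S1, against 2.63, 2.69, 2.52 and 2.81 in control embryos. These were among the brightest probes with a large difference, and the groups stood far apart on each slide. The fitted rises were 2.56 ± 0.12 (SE) for cyp2f1 and 2.53 ± 0.12 for cyp2a13l, with adjusted p = 9.2e-08 and 7.7e-08.

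The cyp2f1 and cyp2a13l values are not separate measurements. Both probes are of the design's cross-hybridising kind, which can bind related transcripts, and on any single array they differed by at most 0.14. A probe assigned to rbm48, a gene for an RNA-binding protein of another family, is also of that kind and differed from the cyp2f1 probe by at most 0.07 on any array. Its difference of 2.59 ± 0.11 (SE) is therefore no separate evidence about rbm48. In all, 15 cross-hybridising probes formed 1 group of near-equal values (within 0.5 of each other on all 12 arrays, a limit set after the values were seen), with S1 means of 5.13 to 5.29 and control means of 2.51 to 2.77. Which of the related transcripts carry this signal was not tested.

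In the order of genes in RefSeq's UCB_Xtro_10.0 assembly, the P450 genes lie close together. Between cyp2f1 and cyp2a13l there are 2 other genes, and 4 more separate cyp2a13l from cyp2c19. A stretch of 15 consecutive genes around them, from LOC100490015 to LOC100491441, had 6 measured genes, and each of the 6 rose. The ends of the stretch were picked after the values were seen, and 4 of the 6 share the probe group described above, so that the stretch holds 3 separate signals. The largest was that of LOC100491441, a protein-coding gene without a name that lies 1 gene away from cyp2c19. Its cross-hybridising probe read 4.38, 4.29, 4.28 and 3.52 in S1, against -1.50, -1.69, -1.83 and -1.74 in control embryos. This was a rise of 5.81 ± 0.22 (SE), or 56-fold, with adjusted p = 2.84e-08. The measured genes next to either end of the stretch gave differences of 0.69 and 0.20 and did not pass (adjusted p = 0.064 and 0.403).

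The remaining measured P450 genes showed smaller differences, none of which passed. They ran from -0.38 for cyp2a6.1 to 0.59 for cyp3a4.2 (adjusted p = 0.11 and 0.20). The gene cyp1b1, a target of the dioxin receptor in vertebrates, stood at 0.24 (adjusted p = 0.383) and ahr, the gene of that receptor, at -0.08 (adjusted p = 0.812). The pregnane X receptor gene nr1i2, which regulates P450 and transporter genes, stood at 0.37 (adjusted p = 0.0757). No tested probe was paired with the symbols cyp1a1 or cyp3a4.

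The efflux pump gene abcg2, whose product exports drugs and conjugated compounds, read 1.86, 1.78, 2.23 and 1.63 in S1 embryos, against 0.49, 0.41, 0.00 and 0.53 in control embryos. All 4 S1 arrays were more than 1.0 above the highest control array. The rise was 1.52 ± 0.14 (SE), or 2.86-fold (adjusted p = 9.6e-05), and it was 1.38, 1.59 and 1.36 within the 3 slides. The other 10 ABC genes lay between -0.23 and 0.22. The calls of cyp2c19, cyp2f1, cyp2a13l and abcg2 held whichever of the 12 arrays was left out and with brightness as a covariate. After normexp background correction with local backgrounds as measured, cyp2c19 and abcg2 lost their calls (differences of 1.03 and 1.02, adjusted p = 0.802 and 0.481).

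Genes of immune signalling formed the other set of large rises. Chemokines are secreted proteins that attract white blood cells, and cxcl9 and cxcl11 are classic targets of interferon in mammals. In the list of chemokines and interferon-responding genes, 25 were measured, 4 rose and none fell, where 1.41% of all genes with a symbol rose. The median difference was 0.42. The means of 19 of the 25 were higher in S1, against 45.0% of all genes. The list's mean level was -2.97, -2.68, -2.53 and -2.74 on the S1 arrays and -3.76, -3.69, -3.18 and -3.40 on the control arrays, without overlap. Its summed linear signal did overlap, at 8.17 to 10.49 in S1 and 7.12 to 8.53 in control embryos. Only 15 of the 25 genes were well above background on all 8 arrays, so dim genes weigh on the mean log2 level. Such a separation of mean levels was not particular to this list, as it also held for the P450, lens and skeletal muscle lists, among others.

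The chemokine gene cxcl11 had signals of -0.09, -0.41, 1.09 and -0.42 in S1, against -3.02, -3.0, -2.87 and -2.98 in control embryos. The control arrays were nearly equal, and S1-3 was the highest of the S1 arrays. The rise was 3.01 ± 0.31 (SE), or 8.05-fold (adjusted p = 0.0002). For cxcl9 the signals were -3.87, -3.43, -2.66 and -4.07 in S1, against -6.41, -6.79, -6.72 and -8.04 in control embryos, where none of the 4 arrays was well above background. The fitted rise was 3.48 ± 0.39 (SE, adjusted p = 0.00042), and the probe met the filter only through the S1 arrays. For a floor, each control array was given the higher of the probe's own signal and its lowest signal well above background. With that floor the gene was 6.41-fold higher in S1. The normexp differences given below are smaller, so this value is not a lower bound. Again S1-3 was the highest array. In the RefSeq order 1 gene lies between cxcl9 and cxcl11, and both probes are specific ones. The chemokine gene cxcl10 was on the array but too dim for the test.

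The gene mov10, for an RNA helicase that acts against viruses and mobile elements, had signals of -4.46, -5.06, -4.34 and -3.28 in S1, against -5.55, -5.97, -6.31 and -6.67 in control embryos, where 2 of 4 arrays were well above background. Its rise was 1.84 ± 0.33 (SE), with adjusted p = 0.015. The gene acod1la is named after the enzyme that makes itaconate in activated macrophages of mammals. It read -4.99, -4.90, -4.38 and -4.24 in S1, against -8.24, -7.21, -6.29 and -5.41 in control embryos, where 1 of 4 arrays was well above background. The groups did not overlap, but the control arrays spread by 1.21 (SD). Its rise of 2.16 ± 0.49 (SE) had adjusted p = 0.0428, and the call held only when C-4 or S2-4 was left out, with adjusted p up to 0.116 otherwise.

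Other genes of the list with large differences did not pass. The antiviral gene rsad2 read -3.25, -2.34, -2.84 and -4.22 in S1, against -7.14, -5.77, -5.43 and -4.27 in control embryos, a difference of 2.49 ± 0.62 (SE, adjusted p = 0.0623). C-4 was almost as high as the lowest S1 array. The RNA sensor gene ddx58 stood at 0.99 (adjusted p = 0.0818), the chemokine gene ccl4 at 1.35 (0.216) and gbp7, of an interferon-induced family of GTPases, at 0.98 (0.17). The neutrophil chemokine genes cxcl8 and cxcl2 stood at 0.07 and 0.04. None of 21 complement and inflammation genes passed. Of 5 measured markers of myeloid white blood cells none passed, although all 5 means were higher in S1, against 45.0% of all genes, with a median of 0.30. The summed linear signal of those 5 markers was 5.82 to 7.56 in S1 and 3.88 to 5.59 in control embryos, without overlap. Their mean log2 level did overlap, at -2.54 to -2.14 in S1 and -2.82 to -2.42 in control embryos. The gene lyz, a defining marker, was too dim for the test. In whole-embryo RNA more cells of a type and more RNA per cell cannot be told apart, and the part of white blood cells in these rises was not tested.

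The calls of cxcl9, cxcl11 and mov10 held whichever array was left out. With only the 8 arrays of S1 and control cxcl9 and cxcl11 passed, while mov10 (adjusted p = 0.0588) and acod1la (adjusted p = 0.0988) did not. With brightness as a covariate cxcl9 and cxcl11 still passed, but mov10 (1.61, adjusted p = 0.274) and acod1la (0.55, adjusted p = 0.585) did not. After normexp with local backgrounds as measured all 4 lost their calls, with differences of 0.86 for cxcl9, 1.35 for cxcl11, 0.78 for mov10 and 0.84 for acod1la (adjusted p = 0.802 for each). With outlying backgrounds replaced cxcl9 passed at 1.27 and mov10 at 0.85, while acod1la missed the threshold at 0.85 (adjusted p = 0.055).

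**Figure D2:**
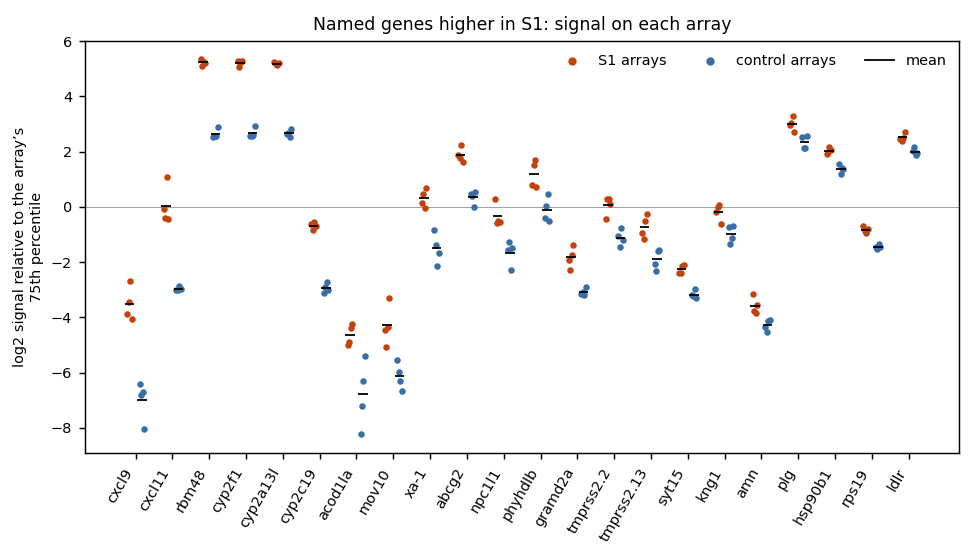
The log2 signal relative to the 75th percentile of the array is shown for named genes that rose, with S1 arrays to the left of control arrays and a bar at each mean. The S1 arrays lie above all control arrays for every gene shown, as the naming rule asked for most of them, and rbm48, cyp2f1 and cyp2a13l carry the same signal.

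Genes of sterol and lipoprotein uptake also rose in part. Of 23 measured genes of that list, 3 rose and none fell, where 1.41% of all genes with a symbol rose, and the median was 0.05. The gene npc1l1, which encodes the sterol transporter of the gut lining in mammals, read 0.29, -0.57, -0.51 and -0.55 in S1, against -1.54, -1.28, -2.30 and -1.50 in control embryos. S1-1 was well above the other S1 arrays, and all 4 stood above the controls. The rise was 1.32 ± 0.23 (SE), or 2.50-fold (adjusted p = 0.0126), and its call held whichever array was left out. For ldlr, the receptor that takes up low-density lipoprotein, the signals were 2.45, 2.38, 2.51 and 2.73 in S1, against 2.01, 2.16, 1.89 and 1.95 in control embryos. This small rise of 0.51 ± 0.10 (SE, adjusted p = 0.0228) lost its call without C-1, C-3, C-4 or S1-3 (adjusted p up to 0.066). The gene amn, whose product anchors a vitamin and protein uptake receptor in gut and kidney, rose by 0.69 ± 0.15 (adjusted p = 0.039), but only the fits without S1-2, S1-3 or S2-4 kept that call (adjusted p up to 0.105 otherwise).

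Genes of fat breakdown gave no call. Among 14 genes of fatty acid oxidation and PPAR targets none passed. Higher means in S1 were found for 12 of the 14, against 45.0% of all genes, and the median was 0.23. The nearest was angptl4, an inhibitor of lipoprotein lipase and a PPAR target, at 0.49 ± 0.14 (SE, adjusted p = 0.0857). The gene cpt1a, for the carnitine transferase that lets fatty acids into mitochondria, stood at 0.46 (adjusted p = 0.113), and acaca, of fatty acid synthesis, at 0.39 (adjusted p = 0.0844).

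Several further genes rose that belong to no list. The gene xa-1 read 0.15, 0.46, -0.05 and 0.69 in S1, against -0.84, -1.38, -2.13 and -1.66 in control embryos, a rise of 1.81 ± 0.36 (SE, adjusted p = 0.025). It lost its call without C-2, C-3, C-4, S1-1 or S1-4 (adjusted p up to 0.0678). Both measured genes of the gramd2 pair rose. For gramd2a the signals were -1.93, -2.29, -1.73 and -1.37 in S1, against -3.16, -3.08, -3.19 and -2.88 in control embryos, a rise of 1.25 ± 0.19 (SE, adjusted p = 0.0046), and gramd2b rose by 1.01 ± 0.16 (adjusted p = 0.0062).

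Both measured copies of tmprss2, which encodes a serine protease of epithelial cell membranes, rose as well. The copy tmprss2.2 read -0.44, 0.30, 0.30 and 0.11 in S1, against -1.05, -1.46, -0.77 and -1.19 in control embryos, and rose by 1.18 ± 0.21 (SE, adjusted p = 0.0126). The copy tmprss2.13 rose by 1.16 ± 0.21 (adjusted p = 0.0148) and lost its call without S1-3 (adjusted p = 0.0567). The probes of phyhdlb and phyhdla.2, genes named after a family of phytanoyl-CoA dioxygenase domains, rose by 1.29 ± 0.26 (SE, adjusted p = 0.0281) and 1.13 ± 0.22 (adjusted p = 0.0228). They belong to 1 group of 6 cross-hybridising probes with near-equal values and count as 1 signal. For phyhdlb the signals were 0.80, 1.51, 1.71 and 0.72 in S1, against -0.40, 0.03, 0.47 and -0.52 in control embryos, so the lowest S1 array was only just above the highest control. Without C-1, C-2, C-4, S1-2 or S1-3 the phyhdlb call was lost (adjusted p up to 0.0837). In RefSeq order acod1la lies 6 genes away from phyhdlb and 2 from phyhdla.2.

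Smaller rises included the zinc carrier gene slc39a8 (1.03 ± 0.13, SE, adjusted p = 0.0015), the gene of the peptide hormone adm2 (1.06 ± 0.19, adjusted p = 0.0141), the lysosomal protein gene lamp3 (0.92 ± 0.11, adjusted p = 0.0008) and the alcohol dehydrogenase gene adh1a (0.78 ± 0.14, adjusted p = 0.0122). The steroid-oxidising enzyme gene hsd17b2 rose by 0.74 ± 0.11 (SE, adjusted p = 0.0032). These 5, and gramd2b and phyhdla.2 above, fall outside the naming rule and were chosen after their values were seen. Of 10 genes of the endoplasmic reticulum's protein-folding response, 1 rose and 1 fell. The chaperone gene hsp90b1 read 1.93, 1.98, 2.16 and 2.06 in S1, against 1.56, 1.20, 1.40 and 1.37 in control embryos, and rose by 0.65 ± 0.11 (SE, adjusted p = 0.0092). Its partner hspa5 stood at 0.55 ± 0.17 (SE, adjusted p = 0.131), at 2.13 to 2.44 in S1 and 1.66 to 1.82 in control embryos. On the S2 arrays, which share that SE, hspa5 read 1.93, 1.83, 2.16 and 2.78. It passed with only the 8 arrays of S1 and control and without S2-4, but in no other alternative. The gene sec61b, for a subunit of the channel that brings proteins into the organelle, fell by 0.93 (adjusted p = 0.0389). Its probe is a cross-hybridising one, and its call was kept only without C-3, S1-1 or S2-4 (adjusted p up to 0.1 otherwise).

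In the liver list, with a median of 0.07, none of 17 genes fell and 2 rose, where 1.41% of all genes with a symbol rose. These were kng1, the kininogen gene, at 0.78 ± 0.18 (SE, adjusted p = 0.0459) and plg, the plasminogen gene, at 0.65 ± 0.15 (adjusted p = 0.0435). The call of kng1 held only without S1-4 and that of plg only without S1-4 or S2-4 (adjusted p up to 0.127 and 0.118 otherwise). Both were lost with the slide as a block (adjusted p = 0.0775 for kng1 and 0.0731 for plg). Albumin, alb, stood at 0.06 (adjusted p = 0.913). The synaptotagmin gene syt15 rose by 0.92 ± 0.12 (SE, adjusted p = 0.0011), the only neuron-list gene of 19 to pass. Lower means in S1 were found for 17 of the 19, against 55.0% of all genes, and the list's median was -0.25. Of 2 measured ribosomal protein genes rps19 rose by 0.63 ± 0.14 (SE, adjusted p = 0.0426), with a cross-hybridising probe and a call that held only without S2-4 (adjusted p up to 0.107 otherwise).

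**Figure D3:**
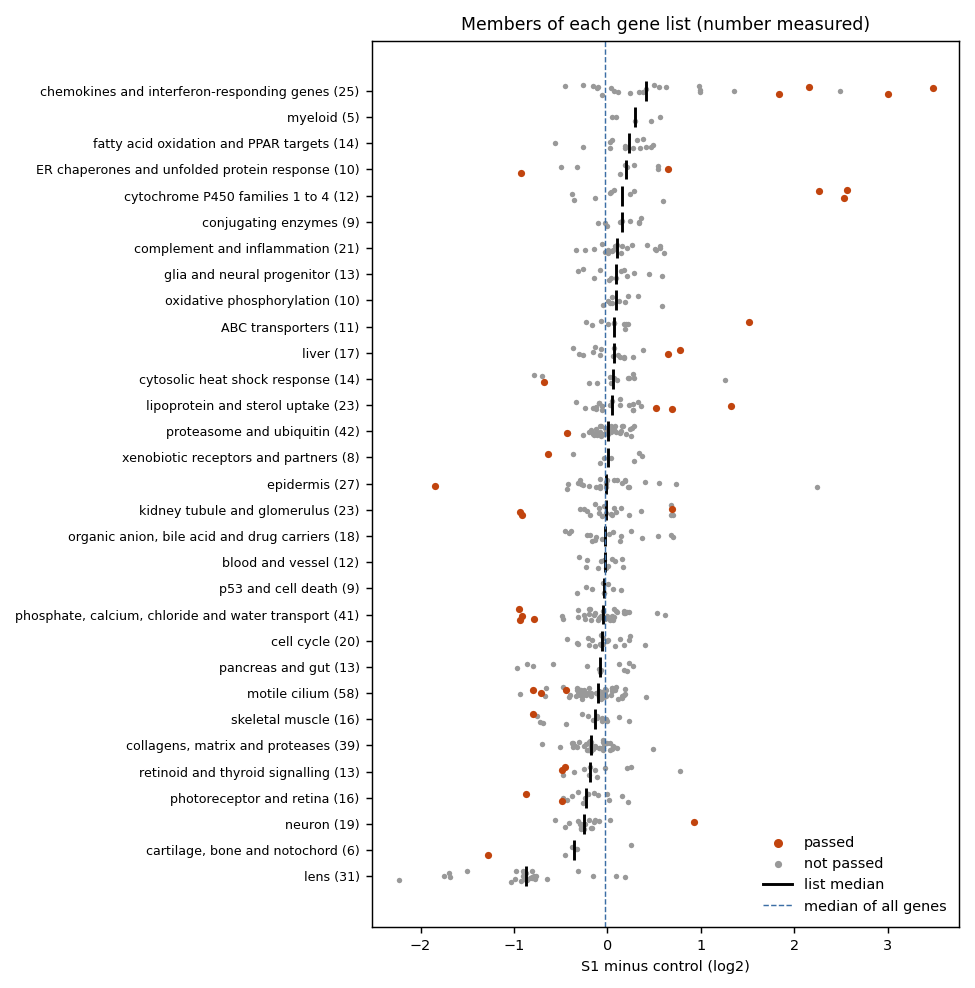
Each point is a measured gene of one of the lists described in the text that have at least 5 measured genes, placed by its S1 minus control difference (log2); orange points passed the test, black bars are list medians and the dashed line is the median of all genes, -0.03. The chemokine list has the highest median (0.42) and the lens list the lowest (-0.88), and no lens gene passed.

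Falls were smaller, and only 2 of the 40 lower genes with a symbol fell by at least 2-fold. Direction depended on the background correction for some genes, of which all but prrc2a were well above background on all 8 arrays: prrc2a and stpg4 stood higher in S1 under both normexp forms, and lrrc52, c4h3orf84, aqp10, rarb and ift88 under the form with local backgrounds as measured. The larger of those 2 falls was krt78.1, a keratin gene of surface epithelium, which read -1.77, -1.1, -1.12 and -1.81 in S1, against 0.73, 0.26, 0.46 and 0.12 in control embryos. It fell by 1.85 ± 0.26 (SE), being 3.59-fold higher in control embryos (adjusted p = 0.0031), and by slide the differences were -2.50, -1.37 and -2.10. The other measured krt78 copies differed by -0.08, -0.32, -0.08 and -0.12 (krt78.2, krt78.3, krt78.4 and krt78.6) and none passed. In the epidermis list 1 of 27 genes fell and none rose, with a median of -0.02. The other large fall was cytl1, a secreted factor of cartilage, with -0.82, -0.38, -0.47 and -0.89 in S1, against 0.52, 0.77, 0.53 and 0.75 in control embryos. It fell by 1.28 ± 0.15 (SE, adjusted p = 0.00062), the only one of 6 cartilage, bone and notochord genes to pass, with a list median of -0.36. Both calls held whichever array was left out, and neither passed with brightness as a covariate (adjusted p = 0.221 for krt78.1 and 0.0529 for cytl1).

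Some genes of ion and water transport fell. Of 41 measured, 4 fell and none rose, where 0.923% of all genes with a symbol fell, and the list's median was -0.05. The water and glycerol channel gene aqp10 read -2.32, -2.36, -2.62 and -2.51 in S1, against -1.55, -1.66, -1.32 and -1.49 in control embryos, with every S1 array below every control. It fell by 0.95 ± 0.11 (SE, adjusted p = 0.0007) and kept its call whichever array was left out, but not with brightness as a covariate (-0.88, adjusted p = 0.0774). The sodium-phosphate carrier gene slc34a3 read 0.74, 0.40, 0.08 and -0.31 in S1, against 1.12, 1.1, 0.96 and 1.46 in control embryos, and fell by 0.93 ± 0.20 (SE, adjusted p = 0.0344). Its relative slc34a2, with a cross-hybridising probe, read -1.21, -0.40, -0.63 and -1.24 in S1, against -0.18, 0.20, 0.08 and 0.07 in control embryos, and fell by 0.91 ± 0.19 (adjusted p = 0.0342). The chloride channel gene clcn2 read 0.35, 0.29, -0.12 and -0.02 in S1, against 0.97, 1.13, 0.58 and 0.97 in control embryos, and fell by 0.79 ± 0.14 (SE, adjusted p = 0.0144). Each of the 3 had an S1 array close to the lowest control. The clcn2 call was lost without C-2 (adjusted p = 0.0508). That of slc34a3 was lost without any one of the 4 controls, S1-3, S2-2 or S2-3 (adjusted p up to 0.0998), and that of slc34a2 without C-2, C-3, C-4, S1-1, S1-3, S1-4 or S2-2 (adjusted p up to 0.0946).

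Among the eye genes few passed. In the photoreceptor and retina list 2 of 16 genes fell and none rose, where 0.923% of all genes with a symbol fell, and the median was -0.23. The list's mean level was -1.50, -1.61, -1.64 and -1.34 on the S1 arrays, against -1.45, -1.29, -1.09 and -1.33 on the control arrays. These means overlapped, and within slide 1 they differed by -0.04. The gene rbp3, whose product carries retinoids between photoreceptors and pigment epithelium, read 0.23, 0.29, 0.10 and 0.26 in S1, against 0.70, 0.68, 0.68 and 0.77 in control embryos. The spread within each group was narrow, and the fall was 0.48 ± 0.09 (SE, adjusted p = 0.0171), lost without C-4 or S1-3 (adjusted p up to 0.0615). The gene listed as pinopsin100496420, named for a light-sensing pigment of the pineal organ, read -0.77, -1.0, -0.83 and -1.0 in S1, against -0.26, 0.02, 0.59 and -0.45 in control embryos, and fell by 0.88 ± 0.19 (adjusted p = 0.0358). Its call held only without C-3, C-4 or S2-4 (adjusted p up to 0.0934 otherwise), and it was lost with the slide as a block (adjusted p = 0.0629). The rod opsin gene rho stood at -0.00 (adjusted p = 0.997).

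No lens gene passed in the fit over the 12 arrays, although the lens list had the lowest median of the 36 lists, -0.88. Lens markers were lower on average in S1 for 29 of 31 genes, against 55.0% of all genes, and 20 of the 31 were measured by cross-hybridising probes, so that several share a signal. The list's mean level was 2.15, 2.32, 3.32 and 2.72 on the S1 arrays, against 3.56, 3.40, 3.35 and 3.83 on the control arrays. S1-3 came close to the lowest control and S1-1 was the lowest. The summed linear signal was 829 to 2348 in S1 and 1953 to 3089 in control embryos, and these ranges overlapped. The structural gene bfsp1, of the lens-specific beaded filament, read -2.65, -2.69, -1.99 and -2.35 in S1, against -0.33, -0.85, -1.07 and -0.44 in control embryos, a difference of -1.74 ± 0.47 (SE, adjusted p = 0.081). On the S2 arrays, which share that SE, bfsp1 read -3.01, -3.54, -1.57 and -0.87. The SD was 0.33 in S1 and 0.35 in control embryos. The gene bfsp1 passed with only the 8 arrays of S1 and control, without S2-2 and without S2-4, but in no other alternative. Its partner bfsp2 differed by -1.51 ± 0.43 (adjusted p = 0.096), and cryba2, a beta-crystallin gene, by -0.91 ± 0.24 (adjusted p = 0.0753). For bfsp2 only the fits without S2-4 and with the replicate number as a block gave a call. In bfsp1, bfsp2 and cryba2 the groups did not overlap. That held for 6 of the 31 lens genes, all lower in S1, and for 11.6% of all genes with a symbol in either direction. The gene foxe3, a transcription factor of the lens epithelium, stood at -0.32 (adjusted p = 0.588). Fewer lens cells and less lens RNA per cell cannot be told apart here.

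Genes of the muscle, cilium and retinoid lists had scattered falls. The intermediate filament gene synm, the only one of 16 skeletal muscle genes to pass, read -0.62, -1.10, -0.66 and -0.87 in S1, against -0.02, -0.27, 0.20 and 0.04 in control embryos, and fell by 0.80 ± 0.13 (SE, adjusted p = 0.0095). Without C-3, S1-4 and S2-4 together it missed the threshold (-0.71, adjusted p = 0.0535). Lower means in S1 were found for 14 of the 16 muscle genes, against 55.0% of all genes, with a median of -0.13. The muscle list's mean level was 0.41 to 0.55 in S1 and 0.57 to 0.83 in control embryos, without overlap, and within slide 2 it differed by -0.03. Among 58 genes of the motile cilium list 45 means were lower in S1, against 55.0% of all genes, and the median was -0.10. That list was drawn up by symbol and takes in the numbered ccdc, armc, spata and stpg genes, so a member need not be a marker of motile cilia. None of the 58 rose and 3 fell, where 0.923% of all genes with a symbol fell. These were spata45 (-0.80 ± 0.12, SE, adjusted p = 0.0047), stpg4 (-0.71 ± 0.14, adjusted p = 0.0214) and ift88, which encodes a transport protein needed to build cilia (-0.45 ± 0.10, adjusted p = 0.0474). For spata45 the signals were -1.41, -1.19, -1.21 and -1.20 in S1, against -0.38, -0.64, -0.27 and -0.53 in control embryos. Its call held whichever array was left out, but not with brightness as a covariate (-0.77, adjusted p = 0.177). The stpg4 call was lost without C-1, C-2, C-3, S1-1 or S1-3 (adjusted p up to 0.0593), and ift88 kept its call only without S1-2, S1-4 or S2-4 (adjusted p up to 0.131 otherwise). The gene rarb, for a retinoic acid receptor, fell by 0.45 ± 0.10 (SE, adjusted p = 0.0361), with a call kept only without S1-4 or S2-4 (adjusted p up to 0.107 otherwise) and lost with the slide as a block (adjusted p = 0.0561). With rbp3 it made 2 falls among 13 retinoid and thyroid genes, which had a median of -0.19, where 0.923% of all genes with a symbol fell.

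The receptor gene hnf4g named above read -0.92, -0.91, -1.25 and -1.56 in S1, against -0.44, -0.46, -0.64 and -0.54 in control embryos, and fell by 0.64 ± 0.14 (SE, adjusted p = 0.0359). The call held only without S1-1, S1-2, S1-4 or S2-4 (adjusted p up to 0.103 otherwise), and hnf4a, its relative of the liver, stood at -0.36 (adjusted p = 0.345). Other falls were c4h3orf84 (-0.77 ± 0.10, SE, adjusted p = 0.001), lrrc52 (-0.74 ± 0.16, adjusted p = 0.0381) and the heat shock gene hsp30c (-0.67 ± 0.15, adjusted p = 0.0429, a cross-hybridising probe), the only change among 14 cytosolic heat shock genes. The deubiquitinase gene usp13 fell by 0.44 ± 0.09 (SE, adjusted p = 0.0359), the only one of 42 proteasome and ubiquitin genes to pass. The gene prrc2a fell by 0.67 ± 0.16 (SE, adjusted p = 0.0484), with 2 of 4 S1 arrays well above background. Of these 5, c4h3orf84 kept its call whichever array was left out, but not with brightness as a covariate (-0.69, adjusted p = 0.103). The calls of lrrc52 (kept only without C-4, S1-4 or S2-4), hsp30c (S1-2, S1-4 or S2-4), usp13 (S1-3 or S2-4) and prrc2a (S1-2 or S2-4) were lost otherwise, with adjusted p up to 0.0969, 0.103, 0.0947 and 0.133. With the slide as a block lrrc52 (adjusted p = 0.0552) and usp13 (adjusted p = 0.0503) also missed the threshold. The cyclic GMP-dependent kinase gene prkg1, which also falls outside the naming rule, was measured by 4 specific probes. Their differences were -0.42 to -0.56, and 3 of the 4 passed.

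**Figure D4:**
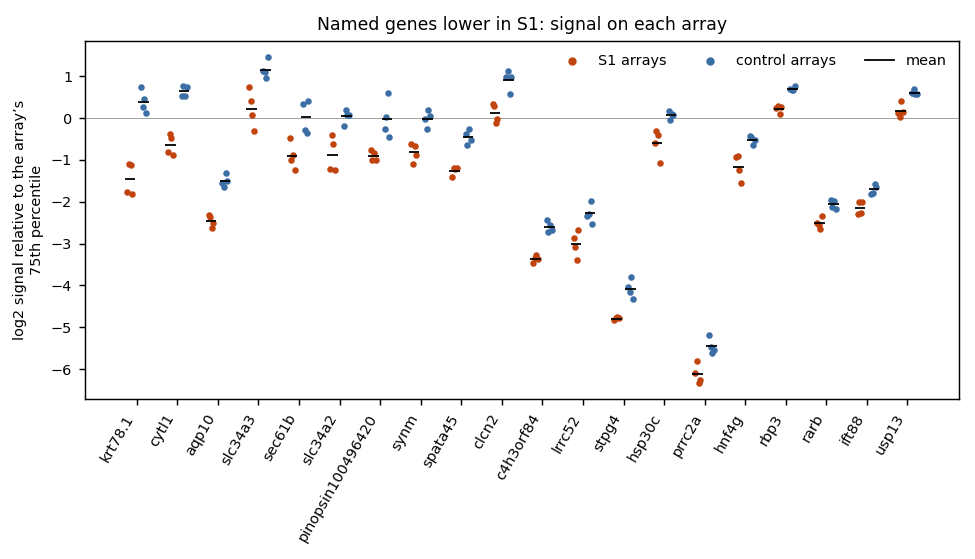
The log2 signal relative to the 75th percentile of the array is shown for each named gene that fell, with S1 arrays to the left of control arrays and a bar at each mean. The widest gap is that of krt78.1, with S1 arrays between -1.81 and -1.1 and control arrays between 0.12 and 0.73.

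Lists without any change held the genes of cell division and cell death. None of 20 cell cycle genes, 9 p53 and cell death genes, 10 oxidative phosphorylation genes, 39 collagen, matrix and protease genes or 3 oxidative stress genes passed. Among the matrix genes 32 of 39 means were lower in S1, against 55.0% of all genes, with a median of -0.18. None of 13 pancreas and gut, 12 blood and vessel, 13 glia and neural progenitor, 3 heart or 3 pigment cell markers passed either. In the kidney list of 23 genes 1 rose, amn, and 2 fell, slc34a2 and slc34a3, genes described above. The shares over all genes with a symbol were 1.41% higher and 0.923% lower. The 95% interval of a difference, not adjusted for the number of probes, reached 0.32 to either side at the median over all probes. Differences smaller than that would mostly not have been detectable with 4 arrays per group. A call after adjustment asked for a larger difference at the same SE, so differences somewhat above 0.32 could also be missed.

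The largest changes of all belonged to probes that matched no gene entry. The probe GT_EA519_mRNA_specific_001556 read 3.72, 3.73, 3.53 and 4.40 in S1, against -5.34, -7.71, -5.95 and -5.99 in control embryos, where 1 of 4 arrays was well above background. The fitted rise was 10.09 ± 0.40 (SE, adjusted p = 2.84e-08). It is limited by the background in control embryos, and with the floor used for cxcl9 the rise was 878-fold, which is likewise not a lower bound. The probe GT_EA519_mRNA_specific_007084 read 2.40, 2.22, 2.07 and 2.94 in S1, against -3.97, -4.40, -4.28 and -4.37 in control embryos, and was well above background on all 8 arrays. It rose by 6.67 ± 0.21 (SE), or 102-fold (adjusted p = 1.29e-08). Both were well above the 75th percentile in S1 and far below it in control embryos, and the sources used here do not name the gene behind either.

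The largest falls were likewise without a gene entry. The probe GT_EA519_mRNA_specific_003840 read 1.02, 1.22, 0.18 and 0.17 in S1, against 3.96, 3.95, 3.68 and 3.86 in control embryos, and fell by 3.22 ± 0.26 (SE, adjusted p = 2.77e-05), with control embryos 9.29-fold higher. The probe GT_EA519_mRNA_specific_006609 read -0.73, -0.63, -0.72 and -0.59 in S1, against 1.64, 1.25, 1.06 and 1.36 in control embryos, and fell by 2.00 ± 0.16 (SE, adjusted p = 1.79e-05). All 4 of these probes also passed with brightness as a covariate. After normexp with local backgrounds as measured, probe GT_EA519_mRNA_specific_007084 (3.44, adjusted p = 0.0518) and probe GT_EA519_mRNA_specific_006609 (-1.22, adjusted p = 0.314) lost their calls. Probe GT_EA519_mRNA_specific_001556 passed at 4.79 in that form and at 6.96 with outlying backgrounds replaced. Grouped by near-equal values on all 12 arrays, the 190 probes that changed at least 2-fold made 131 groups, 108 higher and 23 lower in S1. Single probes made up 108 of the 131 groups. The other groups held several probes each, so the counts of probes include repeated readings of a target. The biggest groups were the 15 probes around cyp2f1 and 12 cross-hybridising probes that fell by 1.19 to 1.31 and matched no gene. Of 837 tested probes of LOC placeholder genes 36 changed, 29 higher and 7 lower, where 2.2% of all probes changed. These include the LOC100491441 and LOC100490015 probes of the P450 stretch described above.

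**Figure D5:**
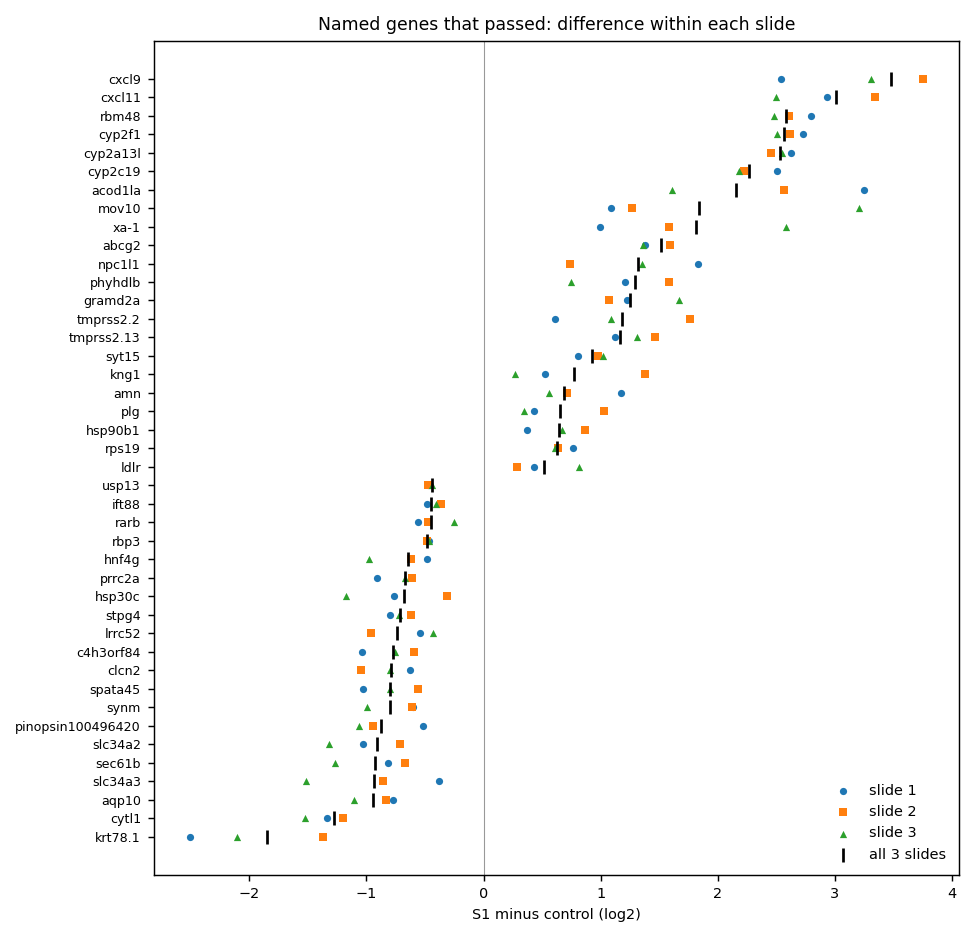
For named genes that passed, symbols show the S1 minus control difference (log2) within each of the 3 slides and a vertical tick the difference over all arrays. Within every slide each gene keeps its direction, which non-overlapping groups fix, and the size varies most for mov10 (1.09, 1.27 and 3.21 on slides 1, 2 and 3) and acod1la (3.25, 2.57 and 1.61).

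The direct test of S1 against S2 gave no call. Of 28746 probes, 0 passed with limma, the lowest adjusted p was 0.0674, and 2134 (7.42%) had an unadjusted p under 0.05. For cyp2c19 S1 minus S2 was -0.21 ± 0.12 (SE), for abcg2 0.06 ± 0.14, for cxcl11 -0.01 ± 0.31 and for krt78.1 0.61 ± 0.26, with adjusted p between 0.67 and 0.993. The S2 and S1 comparisons share the control arrays, so their values are only placed side by side. Against control, S1 and S2 gave 2.27 and 2.48 for cyp2c19, 1.52 and 1.46 for abcg2, 3.01 and 3.02 for cxcl11 and -1.85 and -2.46 for krt78.1. The widest gaps among the named rises were in the tmprss2 copies. There tmprss2.13 gave 1.16 in S1 and 0.38 in S2 (adjusted p = 0.0148 and 0.318), and the S1 minus S2 difference of 0.78 ± 0.21 (SE) had adjusted p = 0.518. A difference that misses the threshold does not show that the mixtures act alike.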

How the data were processed

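RNA of whole embryos was labelled with Cy3, per the labels' protocols, and hybridised to single-colour Agilent arrays of 45220 features. The deposited processed signal is an intensity on a linear scale, made by the authors with Feature Extraction 11.0.1.1, per the file headers, on a design built on JGI 4.1. The authors also deposited a log2 value table, which equals the quantile-normalized log2 processed signal with no centring. Here log2 of the processed signal minus the array's 75th percentile over the 43803 non-control spots was used, 295 outlier spots were dropped unless a probe had no other, and spots of a probe were averaged. No spot was saturated. limma 3.58.1 in R 4.3.3 fitted the 3 groups. The fit was tested on simulated data. Figures used matplotlib 3.10.9.

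Probe accessions were paired with symbols through a RefSeq table of UCB_Xtro_10.0, used only for names and neighbours: 4558 tested probes matched a symbol, 837 a LOC placeholder and 23351 nothing. Of the tested probes 15424 were specific and 13322 cross-hybridising, as read from the words in the probe names. The brightest probe stood for a gene. Named were the 15 largest rises and 15 largest falls with separate groups, up to 4 passing genes per list and a list of 24 genes of prior interest. Some of the genes taken are not reported here. The members, the lists and this rule were chosen with earlier results of these data known. Alternatives covered background correction (normexp with an offset of 50 on the median signal, since the files used here hold no mean signal), scaling, filters, the slide, the replicate number, brightness, array weights, the prior variance, probe kind and each array left out. The number of arrays limits the precision.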

Additional observations from a re-analysis of the deposited data

Results flagged for a closer look

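In 96 groups of 4 arrays 6 held an array that stood apart from the other 3 by Dixon's test, and chance flags about 1 in 20 groups. For rbm48, C-4 stood at 2.8970 while the other controls lay between 2.5445 and 2.5747. For cyp2f1, which carries the same signal, C-4 stood at 2.9465 with the others between 2.5567 and 2.5925, and S1-2 stood at 5.0837 with the others between 5.2563 and 5.2888. For npc1l1, S1-1 stood at 0.2861 while the other S1 arrays lay between -0.5700 and -0.5094. For spata45, S1-1 stood at -1.4082 with the others between -1.2139 and -1.1891. For usp13, C-2 stood at 0.6991 with the others between 0.5733 and 0.5895. All of these arrays lay on their own group's side of the gap between S1 and control embryos.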

How the results depend on the processing

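Probes changed in S1 against control numbered 631 (416 higher, 215 lower). The counts were 28 (27 and 1) after normexp with local backgrounds as measured, 309 (203 and 106) with only the 8 arrays of S1 and control, 110 (82 and 28) with brightness as a covariate, 997 (658 and 339) with a trended and robust prior variance and 360 (224 and 136) with specific probes only, where fewer probes were tested. The lower probes alone numbered 105 after normexp with outlying backgrounds replaced, 137 after scaling by the median and 125 with no filter on dim probes. Leaving out 1 array gave 290 to 777 probes, 211 to 507 higher and 79 to 275 lower, and leaving out C-3, S1-4 and S2-4 together gave 429 (295 and 134). The counts with the authors' value table, quantile normalization, array weights, the slide as a block (622, of which 475 were among the 631) or the other filters stayed within 1.5 times. S1 against S2 gave 1 probe after scaling by the median, 2 with probes well above background on all 8 arrays, 1 with the trended prior, 2 with specific probes only and 0 to 1 with 1 array left out. Beyond what the construction of a setting shows, the cause was not tested.

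Of the 43 genes that the naming rule took and that passed, 7 passed with brightness as a covariate. They were cxcl9, cxcl11, rbm48, cyp2f1, cyp2a13l, cyp2c19 and abcg2. With only the 8 arrays of S1 and control 21 of the 43 passed and 22 lost their calls. Among those lost were mov10, npc1l1, tmprss2.13, clcn2, rbp3, ldlr, slc34a2 and slc34a3. Of the 43, 20 passed whichever array was left out, 37 with the slide as a block and 3 after normexp with backgrounds as measured. That last form turned the sign of prrc2a (0.68), stpg4 (0.55), lrrc52 (0.27), c4h3orf84 (0.23), aqp10 (0.079), rarb (0.23), ift88 (0.21) and bfsp2 (0.033), and the form with outlying backgrounds replaced that of prrc2a (0.48) and stpg4 (0.25). The replicate numbers were not shown to pair the samples, as deviations of same-numbered S1 and control arrays correlated at -0.02 to 0.37. With the replicate number as a block 464 probes (314 higher, 150 lower) and 30 of those 43 genes passed, and S1 against S2 gave 0. Signal close to background limits cxcl9, acod1la, mov10, prrc2a and the probe GT_EA519_mRNA_specific_001556.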

Other observations

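A keratin gene outside the calls showed an unusual single reading. For krt12.6 array S1-2 read 5.15, while the other S1 arrays read -4.76, -4.79 and -4.70 and the control arrays -4.39, -4.45, -4.56 and -4.69. The difference of 2.25 ± 1.76 (SE) had adjusted p = 0.573 and rests on that array.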
